A study of Homo sapiens with 6 samples.

Results

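The complement genes of HEY cells, a human ovarian carcinoma cell line, were compared between cells with a hairpin against PQBP1 and cells with a control hairpin. PQBP1 is a splicing-associated protein. The set holds 9 of the 32679 genes in the deposited table: C3, CFB, CFI, C1R, C1S, CD46, CD55, CD59 and SERPING1. The set was picked by gene name from these data, because C3 was higher in the PQBP1 hairpin cells. The values of C3 are therefore a description with no test, and tests were read only for the other 8 genes. The control group (shNC, 3 libraries) carried a control hairpin and had no treatment in the labels. The knockdown group (shPQBP1, 3 libraries) carried an inducible PQBP1 hairpin and received doxycycline at 1 µg/ml. All 6 libraries were taken on day 3, from stably transduced, drug-selected cells of the same line. Hairpin and doxycycline differed together between the groups, so their parts cannot be told apart. The 3 libraries of each group are biological triplicates per the series' design, and nothing more is given on how the cultures were separated, so that p-values measure only the spread between these libraries. RNA of whole cultures was measured, so fewer cells expressing a gene and less RNA per cell cannot be told apart.

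Complement is a chain of proteases and opsonins of innate immunity, made largely by the liver but also by tumour and stromal cells. The classical, lectin and alternative routes all lead to cleavage of C3, whose fragment C3b marks a surface and feeds an amplification loop. C1R and C1S are the proteases of the C1 complex that starts the classical route, and CFB supplies the protease of the alternative route. SERPING1 encodes C1 inhibitor, and CFI encodes the protease that cuts C3b when a cofactor is present. Cells protect themselves with membrane proteins: CD46 is a cofactor for factor I, CD55 speeds the decay of the enzymes that cut C3, and CD59 blocks the membrane attack complex. CD55 and CD59 are held by a glycosylphosphatidylinositol (GPI) anchor, while CD46 spans the membrane.

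CD46 and CD55, both on chromosome 1, were the members other than C3 with the largest differences among those tested, and CD59, on chromosome 11, had overlapping groups. Their upstream sequences are shown to set these promoters side by side. They come from RefSeq (build GRCh38.p14), which held an entry for 6 of the 9 members: CFB, CFI, C1R, CD46, CD55 and CD59. Each entry spans 300 bases, 250 before and 50 after a start site. Printed are up to 150 bases that lie before the RefSeq start and before the first transcript start of the gene in GENCODE release 44. Capitals mark matches, on either strand, to 6 short patterns. GGGCGG is the core of a GC box, which Sp1 binds. The core of the box named after its letters is CCAAT, bound by NF-Y. TATAAA is the box that places the transcription start in some promoters. The core of sites for the CREB and ATF family is TGACG. C/EBP-type sites were searched as TTNNGNAA, and sites of the STAT type as TTCNNNGAA.
CD46, chr1:207751887-207752036, plus strand: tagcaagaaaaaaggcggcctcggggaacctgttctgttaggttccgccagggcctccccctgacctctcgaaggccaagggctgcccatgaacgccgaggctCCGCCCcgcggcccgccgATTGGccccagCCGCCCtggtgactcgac
CD55, chr1:207321428-207321518, plus strand: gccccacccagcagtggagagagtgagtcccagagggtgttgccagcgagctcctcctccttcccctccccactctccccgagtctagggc
CD59, chr11:33736480-33736629, minus strand: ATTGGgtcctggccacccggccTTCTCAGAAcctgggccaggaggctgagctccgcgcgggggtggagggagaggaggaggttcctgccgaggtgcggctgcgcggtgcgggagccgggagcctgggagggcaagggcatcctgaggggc

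The 150 bases of CD46 held 2 GC box cores and 1 CCAAT box core. Those of CD59 held 1 CCAAT box core and 1 STAT-type match. The 91 bases of CD55 held none of the patterns. Over the full 300 bases, CD46 had 3 GC box cores, 1 CCAAT box core and 1 TGACG, whereas CD55 had 1 GC box core and 2 TGACG. CD59, by its most upstream entry, had 2 GC box cores, 1 CCAAT box core and 1 STAT-type match. TGACG was present in the promoters of CD46, CD55 and C1R among the 6 members searched, and in 24.6% of all 35116 promoters. Of all promoters, 45.0% held GGGCGG, 34.6% CCAAT, 11.5% TATAAA, 36.8% TTNNGNAA and 7.66% TTCNNNGAA. The CFB promoter held the only TATAAA of the 6 members searched and also a STAT-type match. A C/EBP-type match was found in CFI and in C1R, 2 in each. These matches describe letters in a window and were not tested as binding sites.

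Values are FPKM, fragments per kilobase of transcript scaled to a library's mapped fragments, as the authors deposited them for each gene. Differences are given as log2 fold change, shPQBP1 over shNC, on the log2(FPKM + 0.1) scale. The sum of FPKM was between 278285.8 and 318484.3 per library, the read depth is unknown, and the first shNC library had the lowest correlations with the others (0.926 to 0.955, Pearson r on the log scale). PQBP1 itself was at 7.18, 6.67 and 6.93 FPKM in the shNC libraries and at 1.68, 1.72 and 1.44 FPKM in the shPQBP1 libraries. The groups did not overlap, and PQBP1 fell by 2.04 on the log2 scale (SE 0.102, limma adjusted p = 0.00154). An exact two-sided permutation test of the 6 libraries gave p = 0.1, the smallest that 3 against 3 allows.

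C3, the central component, was listed at 1.92, 1.86 and 2.04 FPKM in the shNC libraries and at 7.46, 8.70 and 8.51 FPKM in the shPQBP1 libraries. Every shPQBP1 library was above every shNC library. The means were 1.94 ± 0.092 and 8.223 ± 0.668 FPKM (SD, n = 3 each), a ratio of 4.24 and a log2 difference of 2.03. Among the 11413 genes tested, those averaging 1 FPKM or more over the 6 libraries, the level of C3 lay between percentile 17.0 and 20.4 in the shNC libraries. It lay between percentile 59.0 and 63.7 in the shPQBP1 libraries. This was the rise for which the set was chosen.

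CFB, which forms the alternative route's convertase together with C3b, was at 0.40, 0.66 and 0.50 FPKM in the shNC libraries and at 0.26, 0.55 and 0.70 FPKM in the shPQBP1 libraries. The groups overlapped, with means of 0.520 ± 0.131 and 0.503 ± 0.224 FPKM (SD, n = 3 each). CFB was thus under the low-value limit of a mean of 1 FPKM in both groups. CFI, the protease that inactivates C3b, was listed at 0.01 FPKM in 1 library of each group and at 0 in the other 4. SERPING1 was at 0.03, 0.03 and 0.07 FPKM against 0.03, 0.09 and 0.11 FPKM, and these groups overlapped as well. The soluble inhibitors CFI and SERPING1 were therefore near 0 in both groups, while C3 was not.

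The classical route proteases C1R and C1S lie next to each other on chromosome 12 and were low in both groups. C1R was at 0.50, 0.31 and 0.45 FPKM in the shNC libraries and at 0.69, 0.86 and 0.86 FPKM in the shPQBP1 libraries. C1S was at 0.47, 0.50 and 0.49 FPKM in the shNC libraries and at 1.56, 1.05 and 0.92 FPKM in the shPQBP1 libraries. For both genes every shPQBP1 library was above every shNC library. The ratio of the means was 1.91 for C1R and 2.42 for C1S. Both genes had a mean under 1 FPKM over the 6 libraries and did not enter the main test. When all 30717 genes above 0 in at least 1 library were tested, the limma adjusted p was 0.212 for C1R and 0.122 for C1S. C1S overlaps LPCAT3, a phospholipid acyltransferase gene on the opposite strand, which was at 6.25, 6.22 and 6.22 FPKM in the shNC libraries and at 4.18, 4.97 and 5.81 FPKM in the shPQBP1 libraries (log2 fold change -0.33, limma adjusted p = 0.197). C1R overlaps C1RL. The sources used here do not state whether reads were counted by strand, so reads of overlapping genes may be shared.

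**Figure D1:**
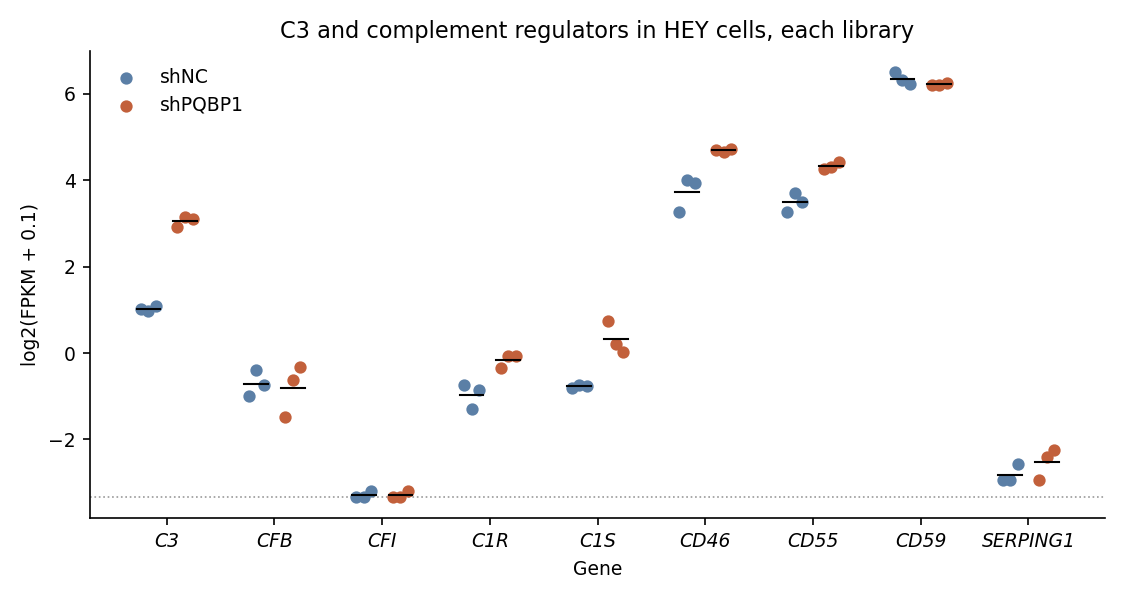
FPKM of the 9 genes in each of the 6 libraries of HEY cells, as log2(FPKM + 0.1) on the vertical axis, with shNC in blue and shPQBP1 in orange, a black line at each group's mean and a dotted line at an FPKM of 0. All 3 shPQBP1 libraries lie above all 3 shNC libraries for C3, C1R, C1S, CD46 and CD55, and the groups overlap for CFB, CFI, CD59 and SERPING1.

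The membrane regulators were the most abundant members. CD55, the decay accelerating factor, was at 9.45, 12.90 and 11.16 FPKM in the shNC libraries and at 19.11, 19.80 and 21.36 FPKM in the shPQBP1 libraries. The groups did not overlap, and the means were 11.17 ± 1.725 and 20.09 ± 1.153 FPKM (SD, n = 3 each). CD55 rose by 0.85 on the log2 scale (SE 0.127, 95% interval 0.54 to 1.16, limma adjusted p = 0.0282), a ratio of 1.80. Its adjusted p ranged from 0.00952 to 0.173 over 14 alternatives and was under the threshold in 7 of them. The call held without shNC 1 or shNC 2 (0.0262 and 0.0429) and was lost without shNC 3 or any shPQBP1 library (limma adjusted p from 0.107 to 0.133).

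CD46, the membrane cofactor protein, was at 9.42, 16.03 and 15.10 FPKM in the shNC libraries and at 25.91, 25.11 and 26.40 FPKM in the shPQBP1 libraries. Every shPQBP1 library was above every shNC library, and the first shNC library was the lowest of the 6. The means were 13.517 ± 3.578 and 25.807 ± 0.651 FPKM (SD, n = 3 each), a ratio of 1.91. The log2 fold change was 0.97 (SE 0.204, 95% interval 0.47 to 1.46), and the limma adjusted p of 0.063 missed the threshold of 0.05. Without the first shNC library the log2 fold change was 0.73 with a limma adjusted p of 0.0117. After removal of trends with GC content and transcript length it was 0.74 with a limma adjusted p of 0.0132, in a fit that called 938 genes. These were the only 2 of 14 alternatives in which CD46 was called. Over the 14, its limma adjusted p ranged from 0.0117 to 0.215.

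CD59, the inhibitor of the membrane attack complex, was at 90.53, 79.12 and 74.98 FPKM in the shNC libraries and at 73.71, 74.00 and 76.09 FPKM in the shPQBP1 libraries. The groups overlapped, with means of 81.543 ± 8.053 and 74.6 ± 1.298 FPKM (SD, n = 3 each). The log2 fold change was -0.12 (SE 0.087, 95% interval -0.33 to 0.09, limma adjusted p = 0.399), an interval that holds no rise as large as the lower bounds of CD46 or CD55. A readthrough gene that overlaps CD59 (ENSG00000284969) also had overlapping groups, with means of 4.94 ± 1.075 and 5.49 ± 0.827 FPKM (SD, n = 3 each).

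Among the genes tested, the 3 membrane regulators held different places. CD59 lay between percentile 96.1 and 96.5 in the shNC libraries and between 95.9 and 96.1 in the shPQBP1 libraries. CD46 lay between percentile 67.5 and 79.4 in the shNC libraries and between 87.1 and 87.7 in the shPQBP1 libraries. CD55 lay between 67.6 and 74.6 in the shNC libraries and between 82.7 and 84.6 in the shPQBP1 libraries. In the shNC libraries the order of FPKM was thus CD59 first, with CD46 and CD55 overlapping each other, and C3 below them. In the shPQBP1 libraries CD46 was above CD55 in every library, and C3 was again the lowest of the 4.

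**Figure D2:**
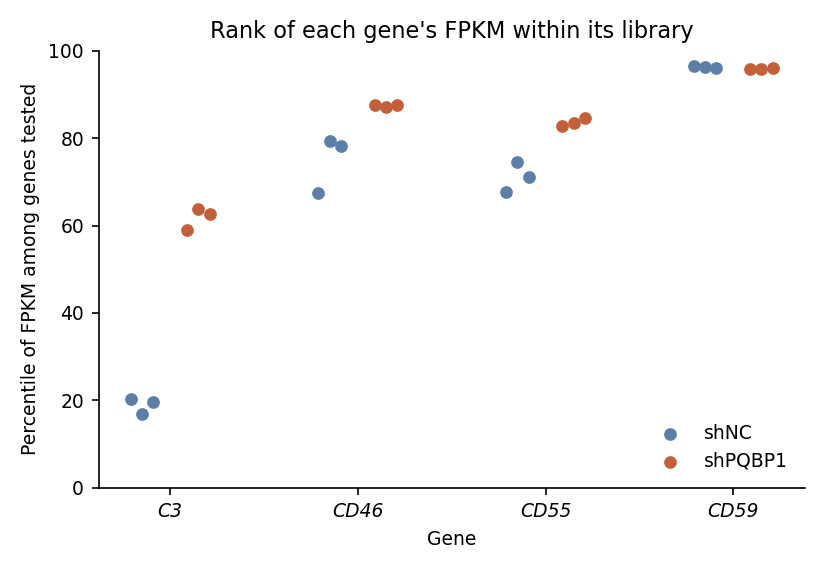
Percentile of FPKM among the 11413 genes tested, from 0 to 100 on the vertical axis, for the 4 members that passed the filter on low values, with a point for each library, shNC in blue and shPQBP1 in orange. CD59 lies between percentile 95.9 and 96.5 in all 6 libraries, while C3 goes from 17.0 to 20.4 in shNC to 59.0 to 63.7 in shPQBP1.

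Of the 8 members other than C3, 3 passed the filter on low values, and 1 of them, CD55, was called at an adjusted p under 0.05. The background was 2.91% of the 11413 genes tested (197 higher and 135 lower in shPQBP1). None of the 3 passed the study's fold rule (fold change over 2 with unadjusted p under 0.05), against a background of 1.52%. The rule was applied here to limma on the log2(FPKM + 0.1) scale, whereas the study used edgeR. The groups did not overlap for 2 of the 3, against 34.4% of all genes tested, so that this count alone is not a result about these genes. Of the 5 members below the filter, tested only when the filter was dropped, none was called by the adjusted p (background 0.619%). There, 2 of the 5 had an unadjusted p under 0.05, 0.0116 for C1R and 0.00286 for C1S, both by limma. Of all 30717 genes in that test, 4156 had an unadjusted limma p under 0.05. C1S passed the fold rule (background 2.16%), and C1R and C1S had groups that did not overlap (background 19.5%).

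The other complement genes were taken from 3 lists of 51 genes: components and proteases, receptors, and further regulators. Of these, 38 were in the table and 5 passed the filter on low values. THBD and COLEC12 rose and none fell at an adjusted p under 0.05, against 2.91% of all genes tested called in either direction. The median log2 fold change of the 5 was 0.60 against 0.02 over all genes tested. Most complement genes were thus at very low levels in these cells, and 33 of the 38 stayed below the filter.

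THBD encodes thrombomodulin, an endothelial anticoagulant receptor that also helps factor I to inactivate C3b. It was at 5.47, 4.53 and 4.28 FPKM in the shNC libraries and at 10.39, 12.10 and 11.11 FPKM in the shPQBP1 libraries. The groups did not overlap, and the log2 fold change was 1.22 (SE 0.120, limma adjusted p = 0.00992). THBD was the largest difference among the complement genes tested other than C3. Its call was lost when any of the shPQBP1 libraries was left out (limma adjusted p 0.0511 without shPQBP1 1, 0.0644 without shPQBP1 2 and 0.0727 without shPQBP1 3). COLEC12, a scavenger receptor of the collectin family, was at 1.51, 1.81 and 1.38 FPKM in the shNC libraries and at 2.72, 2.72 and 3.10 FPKM in the shPQBP1 libraries. Its groups did not overlap either, with a log2 fold change of 0.83 (SE 0.136, limma adjusted p = 0.0345). The call of COLEC12 was lost with any of the 6 libraries left out (limma adjusted p from 0.0557 to 0.156).

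C1RL, a relative of C1R whose gene overlaps it, was at 1.11, 1.72 and 1.45 FPKM in the shNC libraries and at 1.95, 2.18 and 2.40 FPKM in the shPQBP1 libraries (log2 fold change 0.59, limma adjusted p = 0.133). ITGB2, the beta chain shared by the complement receptors CR3 and CR4, was at 2.08, 1.91 and 2.08 FPKM against 2.65, 3.42 and 3.36 FPKM (log2 fold change 0.60, limma adjusted p = 0.0657). C1QBP, a mostly mitochondrial protein that binds the globular heads of C1q, was at 75.01, 62.71 and 63.89 FPKM against 44.22, 54.75 and 52.78 FPKM (log2 fold change -0.41, limma adjusted p = 0.115). For these 3 genes the groups did not overlap, as for 34.4% of all genes tested, and the adjusted p missed the threshold. The partner chains of ITGB2 were low: ITGAM was between 0.24 and 0.73 FPKM over the 6 libraries.

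Among the genes below the filter, C5, CFP and COLEC11 had all shPQBP1 libraries above all shNC libraries, at means of 0.203 FPKM or less. C2, C6, CLU, ITGAM and MASP2 had them below. Without the filter, the groups did not overlap for 19.5% of all 30717 genes. These separations, all at low values, are therefore not by themselves results about these genes. C3AR1, the receptor of the C3 fragment C3a, was between 0.64 and 0.96 FPKM with overlapping groups, and C5AR2 was listed at 0 in all 6 libraries.

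**Figure D3:**
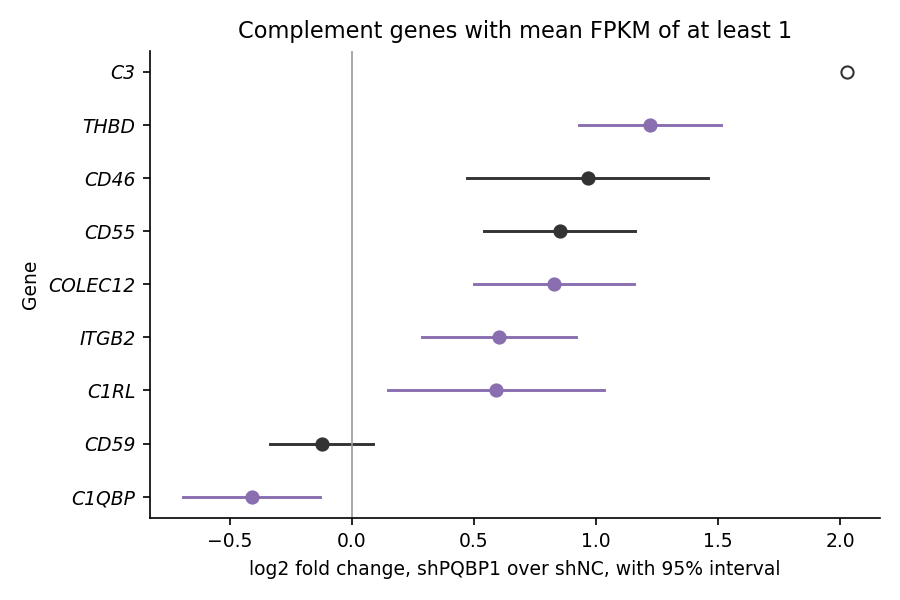
Log2 fold change, shPQBP1 over shNC, on the horizontal axis for the complement genes averaging 1 FPKM or more, with members in black, other complement genes in violet and lines for 95% intervals from limma. C3, drawn open with no interval because it chose the set, stands at 2.03, THBD, CD46, CD55, COLEC12, ITGB2 and C1RL lie to the right of 0, the interval of CD59 spans 0, and C1QBP lies to the left.

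Genes of GPI anchor synthesis were examined because CD55 and CD59 need this anchor to stay on the surface. Of the 28 genes listed, 21 were tested and none was called in either direction, with a median log2 fold change of 0.06. Their smallest limma adjusted p was 0.0949 and their log2 fold changes ran from -0.32 to 0.56. The groups did not overlap for 6 of the 21, 4 higher and 2 lower in shPQBP1, a share below the 34.4% of all genes tested.

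Of the transcription factors known to act on complement promoters, 10 were tested, 1 fell and none rose at an adjusted p under 0.05, against 2.91% of all genes tested called in either direction. All 10 had negative log2 fold changes, from -0.93 to -0.01, with a median of -0.29, except that CEBPB turned positive after GC and length correction and up to 2 of the 10 turned positive with a library left out. STAT3, which carries the signal of IL-6 type cytokines, was at 15.43, 13.82 and 14.39 FPKM in the shNC libraries and at 9.73, 10.59 and 10.04 FPKM in the shPQBP1 libraries. It was the one factor that fell (log2 fold change -0.52, SE 0.081, limma adjusted p = 0.0315), a call that held without shNC 1 and was lost without any other library (limma adjusted p from 0.0759 to 0.147). RELA, a subunit of NF-kappaB, was at 16.08, 12.69 and 14.28 FPKM against 6.07, 6.69 and 10.28 FPKM, with no overlap and a limma adjusted p of 0.0749. NR1H3, CEBPA, CEBPD and HNF4A had a mean below 1 FPKM.

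Cytokines that induce C3 and CFB in many cell types, and their receptors, gave 2 called genes of 15 tested, both higher in shPQBP1, with a median log2 fold change of 0.20, against 2.91% of all genes tested (197 higher and 135 lower). IL1B, interleukin-1 beta, was at 27.79, 26.39 and 21.67 FPKM in the shNC libraries and at 68.28, 82.80 and 81.38 FPKM in the shPQBP1 libraries. It rose by 1.62 on the log2 scale (SE 0.127, limma adjusted p = 0.00493), and no shPQBP1 library overlapped the shNC libraries. IL6 was at 6.18, 5.71 and 6.41 FPKM against 9.69, 10.31 and 9.77 FPKM and rose by 0.69 on the log2 scale (SE 0.082, limma adjusted p = 0.0181). The call of IL1B held with any library left out, and that of IL6 held only without shNC 1 (limma adjusted p from 0.062 to 0.102 without each of the others). IL1A, at 45.36, 67.03 and 66.94 FPKM against 110.00, 105.91 and 105.42 FPKM, missed the threshold with a limma adjusted p of 0.0508. Whether these cytokine levels bear on C3 was not tested.

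Interferon-induced genes moved in both directions. Of 17 tested, 1 rose and 1 fell at an adjusted p under 0.05, against 2.91% of all genes tested, with a median log2 fold change of -0.17. After GC and length correction, 5 of them were called (GBP2, IFI27, IFI6, IFIT2 and MX1), and 938 genes were called in all. IFIT2, an RNA-binding antiviral protein, was at 5.03, 6.63 and 6.95 FPKM in the shNC libraries and at 14.29, 13.40 and 13.22 FPKM in the shPQBP1 libraries (log2 fold change 1.14, limma adjusted p = 0.0181). MX1, an antiviral GTPase, was at 3.63, 3.47 and 3.08 FPKM against 0.87, 1.08 and 0.87 FPKM (log2 fold change -1.75, limma adjusted p = 0.00479). MX1 was called with any library left out, and IFIT2 only without shNC 1 or shNC 3 (limma adjusted p from 0.0518 to 0.0937 without each of the others). Of the acute phase genes, 4 were tested and none was called, with log2 fold changes from -0.52 to 0.22 and a smallest limma adjusted p of 0.155.

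**Figure D4:**
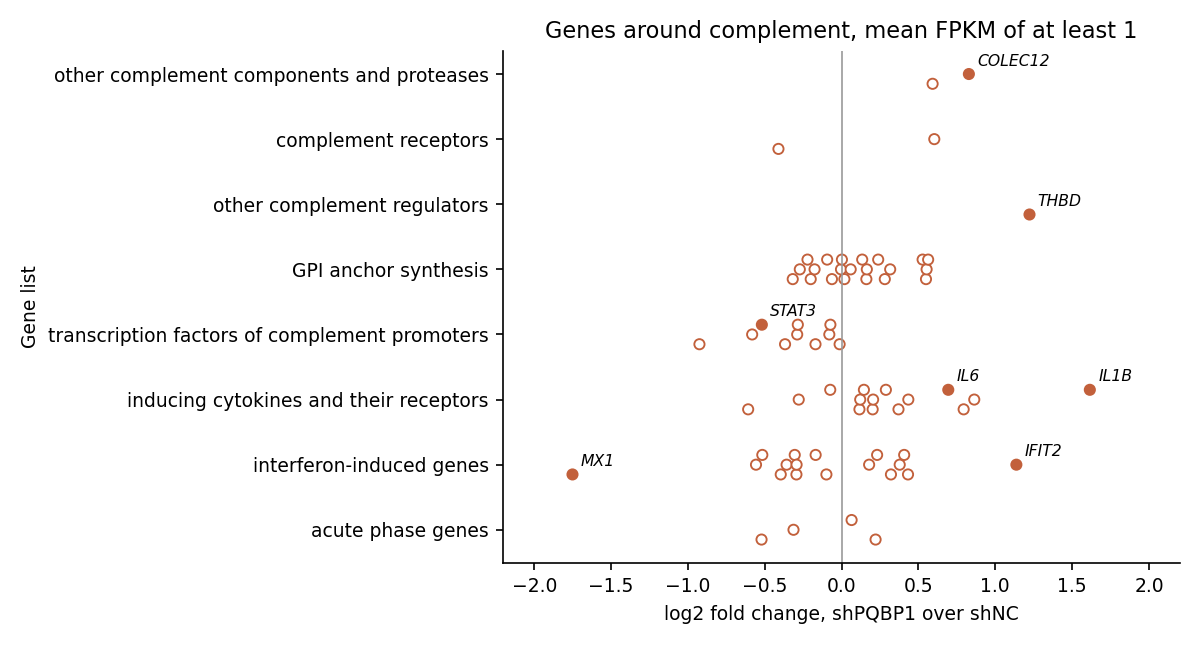
Log2 fold change, shPQBP1 over shNC, on the horizontal axis for every tested gene of 8 gene lists, with filled points for a limma adjusted p under 0.05 and small vertical offsets to separate points. Filled points are COLEC12, THBD, IL6, IL1B and IFIT2 to the right of 0 and STAT3 and MX1 to the left, and the 21 genes of GPI anchor synthesis lie between -0.32 and 0.56.

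Cell type markers were checked because hepatocytes, leukocytes and fibroblasts make complement. The 5 hepatocyte markers in the table summed to 0.04 to 0.06 FPKM in the shNC libraries and 0.05 to 0.09 FPKM in the shPQBP1 libraries, and the 7 fibroblast markers to 0.47 to 1.22 and 0.27 to 1.1 FPKM. The 7 leukocyte markers summed to 9.93 to 16.26 and 12.6 to 21.61 FPKM, nearly all of it CD68, and PTPRC was listed at 0 in all 6 libraries. Of the 10 ovarian carcinoma and epithelial markers, 6 were tested and none was called. PAX8 was at 12.33 to 15.7 FPKM in the shNC libraries and 18.41 to 24.08 FPKM in the shPQBP1 libraries (limma adjusted p = 0.102). KRT7, KRT8 and KRT18 were well above 0, and VIM was the highest at 1111.87 to 1342.76 FPKM. KRT19 was between 1.19 and 2.1 FPKM and EPCAM between 0.79 and 1.13 FPKM. WT1, under the filter, was between 0.31 and 0.71 FPKM, with every shPQBP1 library below every shNC library. Without the filter, the groups did not overlap for 19.5% of all genes. Of the 6 markers tested, PAX8, KRT19 and VIM had every shPQBP1 library above every shNC library and none had them below. Among all genes tested, 34.4% had groups that did not overlap in either direction. MUC16 and CDH1 were at 0.06 FPKM or below.

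C3 lies at chr19:6677704-6730562 on the minus strand of hg38. Of 10 other annotated genes that overlap it or lie within 100 kb, 3 were tested. At an adjusted p under 0.05, 1 of the 3 was called, against 2.91% of all genes tested. CD70, a ligand of the tumour necrosis factor family, lies 73601 bases away and was at 14.64, 10.98 and 12.35 FPKM in the shNC libraries and at 4.80, 5.94 and 5.95 FPKM in the shPQBP1 libraries. It fell by 1.17 on the log2 scale (SE 0.143, limma adjusted p = 0.0187), while C3 was higher. Its call was lost without shNC 3 or any shPQBP1 library (limma adjusted p from 0.0757 to 0.0856). GPR108, a transmembrane protein gene that overlaps C3, had means of 7.183 ± 0.986 and 7.23 ± 0.483 FPKM (SD, n = 3 each), with overlapping groups. TRIP10, an adaptor of CDC42 signalling, had means of 13.137 ± 1.112 and 12.817 ± 0.95 FPKM (SD, n = 3 each), also overlapping. A long non-coding RNA gene on the same strand that overlaps C3 (ENSG00000276980) was at 0.22, 0.32 and 0.18 FPKM in the shNC libraries and at 1.24, 0.95 and 0.93 FPKM in the shPQBP1 libraries. Reads of it and of C3 may not be separable.

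**Figure D5:**
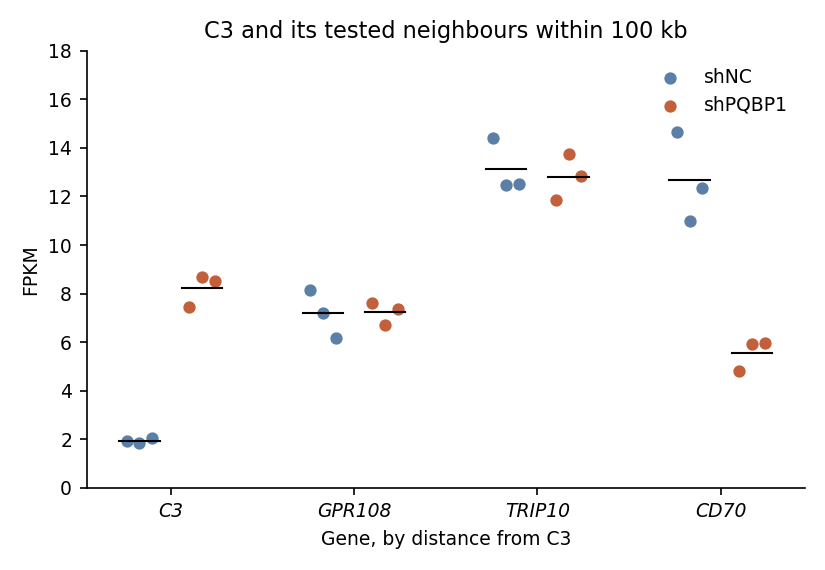
FPKM on the vertical axis of C3 and the 3 tested genes that overlap it or lie within 100 kb, ordered by distance, with a point for each library, shNC in blue, shPQBP1 in orange and a black line at each group's mean. C3 is higher and CD70 lower in all 3 shPQBP1 libraries, and the groups overlap for GPR108 and TRIP10.

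Over the 6 libraries, the genes whose log2(FPKM + 0.1) most resembled that of C3 were EPAS1 (Pearson r = 0.9988), CDC42SE2 (0.9987), MICAL2 (0.9986), FN1 (0.9981) and SNX29 (0.9980). These correlations are descriptions over 6 points that fall into the 2 groups, so any gene with a steady difference between the groups scores high. EPAS1, a hypoxia-inducible transcription factor, was between 14.19 and 14.81 FPKM in the shNC libraries and between 20.33 and 21.09 FPKM in the shPQBP1 libraries. FN1, fibronectin of the extracellular matrix, was between 42.51 and 44.57 FPKM in the shNC libraries and between 127.42 and 154.68 FPKM in the shPQBP1 libraries. By the same measure CD55 had r = 0.951 with C3, a value that 300 of the genes tested reached. CD46 had r = 0.892, reached by 648 genes, and CD59 had r = -0.609.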

How the data were processed

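Short-read RNA-seq of 6 HEY libraries was used, 3 shPQBP1 and 3 shNC. Per the labels and methods, poly(A) RNA was sequenced in paired ends. By the authors' account, alignment to hg38 used HISAT2 2.2.0, sorting used SAMtools 1.9, transcript assembly used StringTie 1.3.0 and the groups were compared by edgeR. The annotation release and FPKM settings are not given in the sources used here. The deposited values are FPKM per gene, rounded to 2 decimals. Columns of the authors' own fold changes and p-values were not used.

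Genes averaging 1 FPKM or more (11413 of 32679) were tested on log2(FPKM + 0.1) with limma (version 3.58.1, R 4.3.3; lmFit and eBayes with trend, two-sided), Benjamini-Hochberg adjusted over all of them, and the fit was tested on simulated data. The members and gene lists were chosen with earlier results of these data known. Named were PQBP1, the 9 members, tested genes of the 3 other complement lists, up to 6 called genes of each other list, the 5 genes most like C3, and tested genes that overlap a member or lie within 100 kb of C3. C5, CFP, COLEC11, C2, C6, CLU, ITGAM, MASP2, C3AR1, C5AR2, RELA, IL1A, GBP2, IFI27, IFI6, the marker genes and the non-coding gene in C3 were named after their values were seen. Some genes of the lists are not reported here. Coordinates come from GENCODE release 44 (hg38) and promoters from RefSeq (GRCh38.p14). Alternatives were pseudocounts of 1 and 0.01, genes above 0 in at least 1 library, median-of-ratios scaling, no trend, a replicate block, correction for GC content and transcript length (natural splines, 5 degrees of freedom, 11385 genes), and each library left out. No whole-read steps were found in low values, so depth is unknown and the spread between libraries stands for all error.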

Additional observations from a re-analysis of the deposited data

How the results depend on the processing

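The count of called members other than C3 was 1 in the main test and also with pseudocounts of 1 and 0.01, with median-of-ratios scaling and without the mean-variance trend. It was 0 when all genes above 0 were tested, 0 with the replicate block, 2 after GC and length correction and 0 after that correction with the replicate block. With a library left out it ranged from 0 to 2: both CD46 and CD55 were called without shNC 1, CD55 alone without shNC 2, and neither without shNC 3 or any of the shPQBP1 libraries. The count of other complement genes called was 2 in the main test, 0 with the replicate block, 1 after GC and length correction with the replicate block (THBD), and 0 to 1 with a library left out, each of which leaves fewer samples. It was 3 after GC and length correction, with ITGB2 added.

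The log2 fold change of PQBP1 was -2.04 with the replicate block (limma adjusted p = 0.0686) and -1.86 after GC and length correction with the replicate block (limma adjusted p = 0.0543), both missing the threshold. It kept its direction and its call under the other 12 alternatives, from -2.10 to -1.60. The same-numbered libraries did not deviate together (correlations -0.186, -0.138 and -0.011), so the numbers were not taken as pairs. At an unadjusted limma p under 0.05, CD46 and CD55 passed under each of these settings. In the main test, 2689 of the 11413 genes tested passed. With the replicate block, 2 members other than C3, 5 other complement genes and 1840 genes in all passed. Over all genes, 332 were called in the main test, 190 when all genes above 0 were tested, 938 after GC and length correction, 0 with the replicate block, 21 with both and 30 to 464 with a library left out. The log2 difference of C3 lay between 1.65 and 2.14 under 14 alternatives, that of CD46 between 0.73 and 1.11, that of CD55 between 0.67 and 0.96, and that of CD59 between -0.18 and -0.05. The other called genes, for which the same alternatives were added after seeing the data, kept their direction throughout, and each lost its call with the replicate block. For C1R and C1S, which are low, a pseudocount of 1 gave 0.35 and 0.54 in place of 0.81 and 1.09.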
